A study of Mus musculus with 20 samples.

Results

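The comparison set XY gonads of (129S1xB6)F1 hybrid embryos against XY gonads of the inbred strain 129S1/SvImJ, with 5 arrays in each group, which together are 10 of the 20 arrays of the series. The arrays were chosen by the strain named in their labels, and the hybrids of the other cross were not pooled in. Every array held RNA from 1 pair of gonads of 1 embryo at embryonic day 11.5 (17 to 21 tail somites), dissected free of the mesonephroi, with no treatment and no engineered allele. The F1 embryos carry 1 set of chromosomes from 129S1/SvImJ and 1 from C57BL/6J, and the labels do not say which strain was the mother. The groups used beside them were (B6x129S1)F1, the hybrid of the other cross, and C57BL/6J, again with 5 arrays each. Embryos of each group came from several litters, but the litter of an embryo is not given. The gonad RNA was labelled with Cy5 on every array, and the Cy3 channel held a common pool made from gonads (4 XY and 3 XX pairs) and whole embryos (4 XY and 2 XX) from a cross of Sox9-ECFP(C57BL/6J) with CD-1. Levels below are log2 ratios of the gonad over this pool, so they are relative levels, and with whole embryos in the pool a gene used widely in the embryo can have a negative value. No dyes were swapped, so an effect of the dye that differs between genes is common to both groups and cancels in their difference only as far as it was constant.

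At this stage the supporting cells of the XY gonad switch on Sry and then Sox9, which starts the testis pathway, while WNT4 and RSPO1 signalling drives the ovary pathway in XX gonads. C57BL/6J is known for its liability to XY sex reversal, and 129 strains are known to be more resistant. An F1 hybrid has 1 allele of each autosomal gene from each strain in the same nucleus, whereas the X and the Y of an XY embryo each come from 1 parent. An autosomal gene whose alleles differ in output through their own regulatory sequence tends to have a level between the strains. A dominant or a trans-acting difference can place the hybrid at the level of 1 strain.

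The arrays held gonad RNA by their markers. The mean log2 ratio of 5 gonadal somatic markers (Nr5a1, Wt1, Gata4, Lhx9 and Emx2) was 2.79 to 3.01 in (129S1xB6)F1 and 2.29 to 2.88 in 129S1/SvImJ, and that of 5 germ cell markers was 2.93 to 3.48 in (129S1xB6)F1 and 2.54 to 2.88 in 129S1/SvImJ. Of the markers of other embryo tissues, the liver gene Alb was low in both, at -3.65 to -2.90 in (129S1xB6)F1 and -3.52 to -2.93 in 129S1/SvImJ. Afp and Neurod1 were also low, with means of -5.07 and -2.81 in (129S1xB6)F1 and -6.55 and -3.29 in 129S1/SvImJ. Myod1 was not low, with a mean of 0.15 in (129S1xB6)F1 and 0.05 in 129S1/SvImJ. The probe for Sry, the testis-determining gene, was well above background on 3 of 5 arrays of each group and was not tested. Xist, which is expressed from the inactive X of XX cells, differed by 0.12 ± 0.11 (SE; limma, adjusted p = 0.81). Per array, 78.4% to 88.3% of gene probes exceeded the background clearly by the scanner software's call. The 2 F1 arrays on slide 5, M3 and M6, were dimmer than the rest, with a median net Cy5 signal of 94.8 and 87.3, against 153 to 206 on the other F1 arrays and 172 to 207 on the 129S1/SvImJ arrays.

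Of 23723 genes tested, 211 were called at an adjusted p under 0.05 (limma over all 20 arrays, Benjamini-Hochberg over all tested probes), which is 0.889% of them. Of these, 152 were higher in (129S1xB6)F1 (0.641% of the tested genes) and 59 were lower (0.249%). A difference of 2-fold or more was seen in 74 of the higher and 10 of the lower genes, and the median size was 0.98 on the log2 scale for the higher genes and -0.74 for the lower ones. The median over all genes tested was 0.01. The share of the calls that were higher depended on the background subtraction, being 72.0% here and 54.8% (102 higher and 84 lower) with no background subtraction. It also moved with the slides, to 83.1% with slide as a block (108 higher and 22 lower) and to 98.0% without the arrays of slides 1 and 5 (50 higher and 1 lower). The 5 and 5 arrays did not overlap for 473 genes, which is 1.99% of those tested, and 187 of these genes were called.

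Among genes with a symbol, the largest differences were higher in the hybrid and came from genes of unrelated function, with Trim12a, Ptprg, Prim2 and Kctd14 at the top. Trim12a, a tripartite motif gene related to antiviral restriction factors, had 1.90, 1.42, 1.65, 1.58 and 1.75 in (129S1xB6)F1, against -2.70, -3.15, -2.28, -2.74 and -3.14 in 129S1/SvImJ. This was a 22.0-fold difference (log2 4.46 ± 0.22, SE; limma, adjusted p = 1.3e-10), although 2 of the 5 129S1/SvImJ arrays did not reach well above background. Ptprg, a receptor-type tyrosine phosphatase, had 0.38 to 0.71 in (129S1xB6)F1 with a median of 0.54, against -3.89 to -3.14 in 129S1/SvImJ with a median of -3.60. The groups lay far apart, and the difference was 4.08 ± 0.13 or 17.0-fold (limma, adjusted p = 2.3e-13). Prim2, the large subunit of DNA primase, had -1.13 to -0.70 in (129S1xB6)F1 and -4.25 to -3.77 in 129S1/SvImJ, a difference of 3.1 ± 0.12 or 8.59-fold (limma, adjusted p = 2.2e-12). Kctd14, a BTB-domain protein of the KCTD family, had 5.89, 5.68, 5.39, 5.80 and 5.95 in (129S1xB6)F1, against 1.86, 3.43, 2.97, 2.73 and 3.05 in 129S1/SvImJ. It was 7.64-fold higher in the hybrid (2.93 ± 0.23; limma, adjusted p = 2.1e-07), and the F1 arrays spread less than those of the strain.

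**Figure D1:**
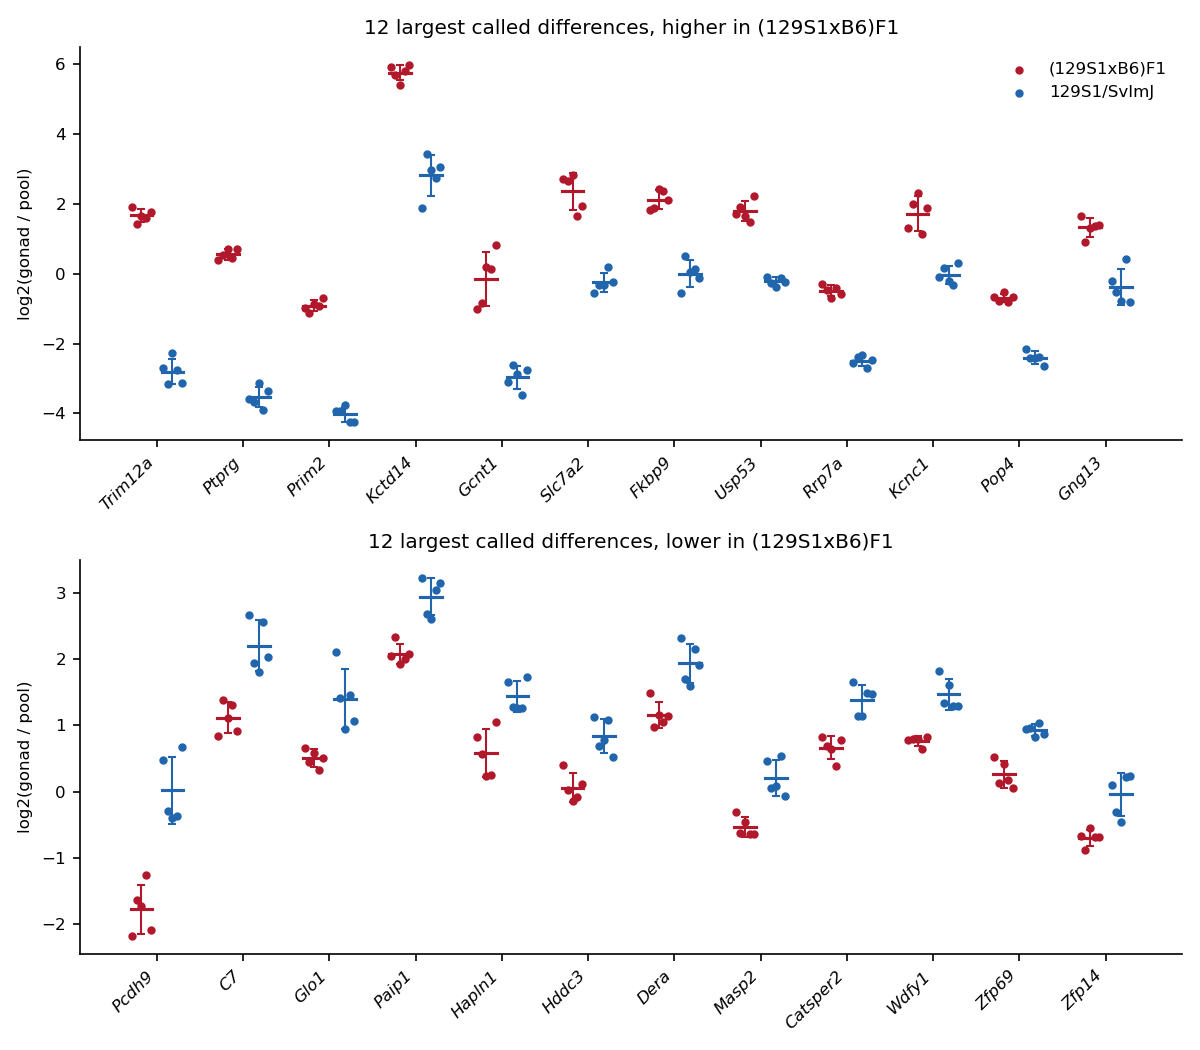
Log2 ratio of gonad over pool (vertical axis) on each array for the 12 largest called differences in each direction among genes with a symbol whose arrays do not overlap, with (129S1xB6)F1 in red to the left of 129S1/SvImJ in blue. Points are arrays, short lines are group means and bars are the SD over 5 arrays. The higher genes in the upper panel run from Trim12a at 4.46 to Gng13 at 1.71, and the lower genes in the lower panel from Pcdh9 at -1.80 to Zfp14 at -0.66.

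The next genes in order of size were also called with all F1 arrays above all 129S1/SvImJ arrays. Gcnt1, a glycosyltransferase that branches O-linked glycans, differed by 2.82 ± 0.29 and had the widest F1 spread of the group, with -1.02 and -0.84 on L1 and L2 against 0.12 to 0.82 on L4, M3 and M6. Slc7a2, a transporter of cationic amino acids, differed by 2.60 ± 0.26, with 2 of 5 129S1/SvImJ arrays well above background. Fkbp9, an FK506-binding protein that helps proteins fold in the endoplasmic reticulum, differed by 2.11 ± 0.23. Usp53, of the ubiquitin-specific protease family, differed by 2.01 ± 0.13, and Rrp7a, which takes part in ribosomal RNA processing, by 2.00 ± 0.13. The remaining members of the group were Kcnc1, a voltage-gated potassium channel (1.76 ± 0.24, well above background on 3 of 5 129S1/SvImJ arrays), Pop4, a protein subunit of ribonuclease P (1.72 ± 0.10), and Gng13, a G protein gamma subunit (1.71 ± 0.28). Pop4 had the smallest adjusted p of these 8 genes (2.9e-09) and Gng13 the greatest (0.0022; limma).

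Fewer genes were lower in (129S1xB6)F1, and most by less than 2-fold. Pcdh9, a protocadherin, had -2.18, -1.64, -1.73, -1.26 and -2.10 in (129S1xB6)F1, against 0.47, -0.30, -0.40, -0.37 and 0.67 in 129S1/SvImJ. The groups did not overlap, and the difference was -1.80 ± 0.23, or 3.48-fold (limma, adjusted p = 1.2e-04). Within 129S1/SvImJ, A3 and G3 lay above the other 3 arrays. C7, a terminal complement component, differed by -1.09 ± 0.25 (adjusted p = 0.038), with its probe well above background on 2 of 5 F1 and 4 of 5 129S1/SvImJ arrays. Glo1, the glyoxalase that clears methylglyoxal, had 0.32 to 0.66 in (129S1xB6)F1 and 0.95 to 2.10 in 129S1/SvImJ, a difference of -0.90 ± 0.16 (limma, adjusted p = 0.0057). Paip1, which binds the poly(A)-binding protein, had 1.93 to 2.34 in (129S1xB6)F1 and 2.61 to 3.22 in 129S1/SvImJ, a difference of -0.87 ± 0.18 (adjusted p = 0.021). The other 8 genes of this group lay between -0.86 and -0.66. They were Hapln1, a link protein of the hyaluronan matrix, the aldolase Dera, Masp2, a protease of the lectin pathway of complement, Catsper2, a subunit of the calcium channel of sperm, Hddc3, Wdfy1, and the zinc finger genes Zfp69 and Zfp14. Neighbouring pairs or runs of called genes were counted in the gene order of RefSeq, after the values had been seen, and 6 were found. They included Hapln1 and Vcan, which encodes the matrix proteoglycan versican that Hapln1 anchors to hyaluronan (-0.86 and -0.61), and Pkig and Ada on chromosome 2, with 0.91 for Pkig and 0.76 for Ada. The run of Nnt, Paip1 and 4833420G17Rik on chromosome 13 had mixed signs (-0.56, -0.87 and 0.65). Chromosome 14 held the most called genes, 14 of 643 tested (2.18%, against 0.84% of all autosomal genes), among them Ptprg and Pcdh9.

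For several of the largest differences the probes named for the same gene gave different sizes. Of the 211 called genes, 67 had more than 1 tested probe. In 13 of these at least 1 other probe was called in the same direction, in 50 all other probes had the same sign, and in 24 all other probes differed by less than 0.25. Among the 23 called genes with at least 2-fold differences and more than 1 tested probe, another probe was called in the same direction in 6, and all other probes were under 0.25 in size in 8. The first 30 of the 60 bases of the probes on the arrays follow for 4 genes whose probes disagree and for Trim12a and Pcdh9, whose probes share a direction, to show which stretches the values belong to.
Ptprg (chromosome 14), difference 4.08: tcaagaataagtacagcttagtttggtggt
Ptprg, difference 0.41: caatcttatgagacctggagtattcacaga
Prim2 (chromosome 1), difference 3.1: ggaaaggaagcattcctattgaaactgtta
Prim2, difference -0.70: tcacgaaatgatttgatagttttcctctct
Usp53 (chromosome 3), difference 2.01: gtggacaggcgatccctggaacagagttat
Usp53, difference -0.03: cattaactacctatttctcagttgatagtt
Rrp7a (chromosome 15), difference 2.00: gaggctgtcacggaaatgtaggtatctgag
Rrp7a, difference 0.08: agaccacctctcgctttgtcttatccctcc
Trim12a (chromosome 7), difference 4.46: catagctaagggctgtcacttacatcaggt
Trim12a, difference 1.91: aagatgtgcagaatgttcggtcagagttta
Pcdh9 (chromosome 14), difference -1.80: tttactggtctataagtactgcctacaagt
Pcdh9, difference -1.51: gtaatcacagtgacagacgaagacgctgga

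The second probes gave the following values. For Ptprg the second probe had 0.43 to 1.03 in (129S1xB6)F1 and -0.31 to 1.11 in 129S1/SvImJ, so that the groups overlapped (0.41 ± 0.26; limma, adjusted p = 0.70). For Prim2 it had -0.16 to 0.61 in (129S1xB6)F1 and 0.48 to 1.44 in 129S1/SvImJ, and was well above background on 3 of 5 F1 arrays (-0.70 ± 0.20, adjusted p = 0.15). The second probes of Usp53 and Rrp7a showed no called difference (adjusted p = 0.98 and 0.89), and both other probes of Gcnt1 and the other probe of Kcnc1 were below 0 (-0.34, -0.23 and -0.20). For Trim12a the second probe was called as well, with 0.79 to 1.63 in (129S1xB6)F1 and -0.91 to -0.45 in 129S1/SvImJ, a difference of 1.91 ± 0.24 (limma, adjusted p = 9.7e-05). Of the 4 other probes of Pcdh9, 3 were called and all 4 were lower, from -1.51 to -0.57, and both other probes of Masp2 were called (-1.16 and -0.56). The other probes of Paip1 gave 0.22 ± 0.13 and -0.70 ± 0.30, neither called (limma, adjusted p = 0.67 and 0.49). Those of Wdfy1 gave -0.88 ± 0.14, which was called, and 0.28 ± 0.13, which was not. A transcript form that a probe misses and a base difference between the strains under a probe cannot be told apart from a change in level by a single probe, and neither was tested. The median GC content was 40.0% for the 218 probes called higher, 41.7% for the 84 called lower and 41.7% for all 34820 tested.

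**Figure D2:**
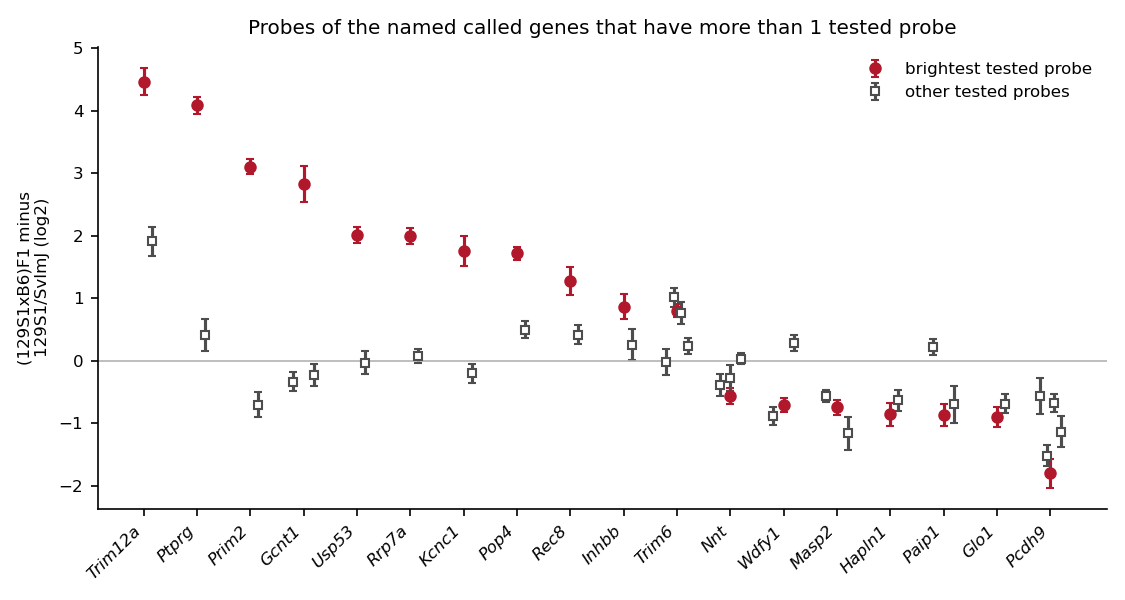
Difference between (129S1xB6)F1 and 129S1/SvImJ (log2, vertical axis) for every tested probe of the named called genes with more than 1 tested probe. Red circles are the brightest probe of the gene, open squares are its other probes, and bars are the SE of the limma fit. The probes of Trim12a, Pcdh9, Masp2 and Glo1 lie on 1 side of 0, whereas the other probes of Usp53, Rrp7a, Gcnt1 and Kcnc1 lie near 0 or on its other side.

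For most called genes C57BL/6J lay beyond the hybrid, away from 129S1/SvImJ. The mean of (129S1xB6)F1 was between the means of the strains in 188 of the 211 called genes. The comparison of (B6x129S1)F1 with C57BL/6J shares no array with the present one, though it shares the slides. In it 210 of the 211 genes were tested. In 189 of these 210 genes (90.0%) the difference had the opposite sign, which is the sign of a gene whose hybrid level lies between those of the strains, against 48.2% of the 23221 genes tested in both. All 58 of the lower genes that were tested there and 131 of the 152 higher genes were opposite. That comparison called 400 of 23354 genes (1.71%), and 83 genes were called in both, which is 39.3% of the 211 and 20.8% of the 400. Of these 83, 81 had opposite signs.

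**Figure D3:**
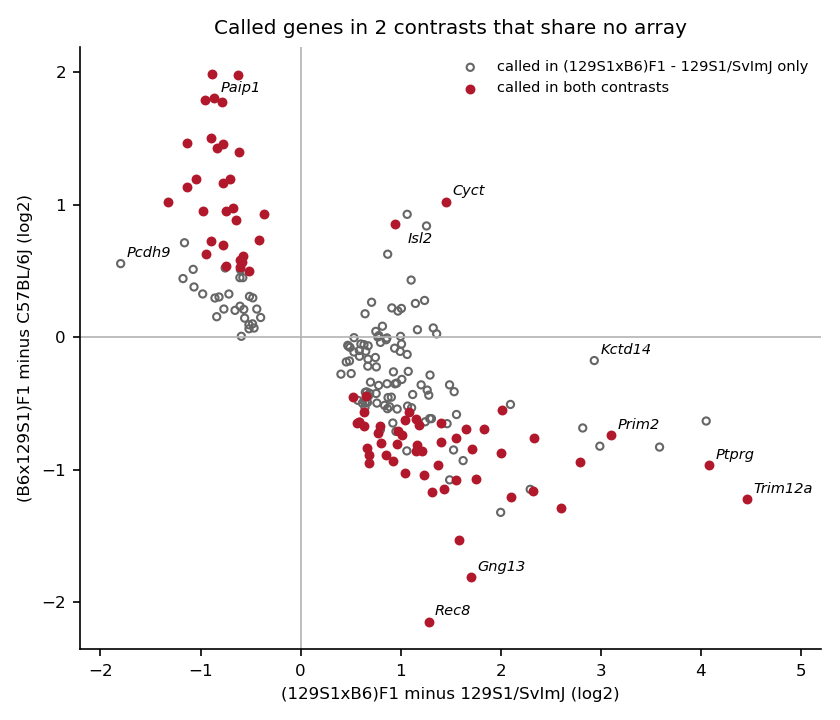
Log2 difference of (129S1xB6)F1 minus 129S1/SvImJ (horizontal axis) against that of (B6x129S1)F1 minus C57BL/6J (vertical axis) for the 210 called genes tested in both. Filled red points were called in both comparisons and open points in the first one alone. Most points lie to the upper left and the lower right of the origin, and Cyct and Isl2 are the filled points in the upper right.

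How near the hybrid came to C57BL/6J differed between genes. Ptprg averaged 0.55 ± 0.15 in (129S1xB6)F1, 0.53 ± 0.16 in (B6x129S1)F1, 1.49 ± 0.19 in C57BL/6J and -3.53 ± 0.29 in 129S1/SvImJ (SD, n = 5 each). The log2 of the mean of the linear levels of the strains was 0.54, against the hybrid's 0.55. Prim2 averaged -0.92 ± 0.16 in (129S1xB6)F1, and the corresponding linear mean of the strains was -1.0. Pop4, Slc7a2 and Dera gave the same picture, with -0.69 against -0.62, 2.35 against 2.36, and 1.16 against 1.23. These are levels of the brightest probe, and the second probes of Ptprg and Prim2 gave other values, as described above. The second probe of Pop4 gave 0.50 ± 0.13 and was not called (limma, adjusted p = 0.098). Slc7a2 was well above background on 2 of 5 129S1/SvImJ arrays. Over the 84 called genes with at least 2-fold differences, 53 lay within 0.25 of the linear mean, and the median size of the distance was 0.19, compared with 0.42 from the mean of the log2 levels. Kctd14 did not follow this, since the hybrid averaged 5.74 ± 0.22 where the linear mean was 5.05, close to the 5.89 ± 0.32 of C57BL/6J. Trim6, a neighbour of Trim12a in the same antiviral gene cluster, averaged 0.90 ± 0.12 in (129S1xB6)F1, 0.97 ± 0.17 in (B6x129S1)F1 and 1.01 ± 0.20 in C57BL/6J, against 0.10 ± 0.08 in 129S1/SvImJ, a difference of 0.80 ± 0.10 (limma, adjusted p = 1.5e-04). Of its 4 other probes, 2 were called and the 4 ran from -0.02 to 1.01. Pcdh9 and Gng13 lay on the other side of the linear mean, at -1.78 against -0.68 and at 1.32 against 2.12, so that Pcdh9 was near the -2.10 ± 0.35 of C57BL/6J. These levels share the F1 and 129S1/SvImJ arrays with the calls and are given as a description.

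For a few genes all arrays of the hybrid lay above those of both strains. Called genes with a symbol whose 5 F1 arrays all lay above the 10 arrays of both strains numbered 4, and none lay below them. Sox2, a transcription factor of pluripotent and germ cells and of the neural tube, had -2.65, -2.31, -2.05, -2.66 and -2.72 in (129S1xB6)F1, against -4.53, -2.89, -2.82, -3.84 and -3.64 in 129S1/SvImJ (1.06 ± 0.24; limma, adjusted p = 0.040), and averaged -3.52 ± 0.25 in C57BL/6J. Isl2, a LIM homeobox gene of motor neurons, differed by 0.95 ± 0.19 (adjusted p = 0.014) and averaged -1.61 ± 0.39 in C57BL/6J. Lin28a, an RNA-binding regulator of let-7 processing found in germ cells and in early embryonic tissue, differed by 0.91 ± 0.20 (adjusted p = 0.033), and Piwil2, a PIWI protein of the germ line, by 1.17 ± 0.25 (adjusted p = 0.027). Against C57BL/6J the difference did not pass for Lin28a (0.76 ± 0.20; limma, adjusted p = 0.092) or Piwil2 (0.92 ± 0.25, adjusted p = 0.10). In the other cross these 2 genes were near C57BL/6J, with Lin28a at -0.24 in (B6x129S1)F1 and -0.46 in C57BL/6J (adjusted p = 0.74) and Piwil2 at 3.29 in (B6x129S1)F1 and 3.23 in C57BL/6J (adjusted p = 0.96). Between (129S1xB6)F1 and (B6x129S1)F1 the difference was 0.54 ± 0.20 for Lin28a and 0.86 ± 0.25 for Piwil2, and neither was called by limma. With the letter as a random block Sox2, Lin28a and Piwil2 were no longer called against 129S1/SvImJ (adjusted p = 0.15, 0.12 and 0.12 with the estimated correlation). With slide as a block Sox2, Isl2, Lin28a and Piwil2 were not called either (limma, adjusted p = 0.20, 0.10, 0.33 and 0.098). Among the 83 genes called in both comparisons, Isl2 and Cyct, the testis form of cytochrome c, were the 2 with the same sign, a pair named after its values had been seen. Both comparisons had hybrids alone on slide 5 and strains alone on slide 1, so they are not independent of the slide layout. Cyct averaged 3.22 ± 0.24 in (129S1xB6)F1, 3.32 ± 0.37 in (B6x129S1)F1, 2.30 ± 0.59 in C57BL/6J and 1.77 ± 0.36 in 129S1/SvImJ. Sox2 and Isl2 are also used in other embryo tissues. The mean of 4 markers of such tissues was -3.20 to -2.35 in (129S1xB6)F1 and -3.44 to -3.10 in 129S1/SvImJ, so that the groups overlapped. Afp averaged -5.07 in (129S1xB6)F1 and -6.55 in 129S1/SvImJ, and Alb -3.40 in (129S1xB6)F1 and -3.28 in 129S1/SvImJ. Myod1 averaged 0.15 in (129S1xB6)F1 and 0.05 in 129S1/SvImJ, and Neurod1 was well above background on 2 F1 arrays and on 0 129S1/SvImJ arrays. Their part in the result was not tested.

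**Figure D4:**
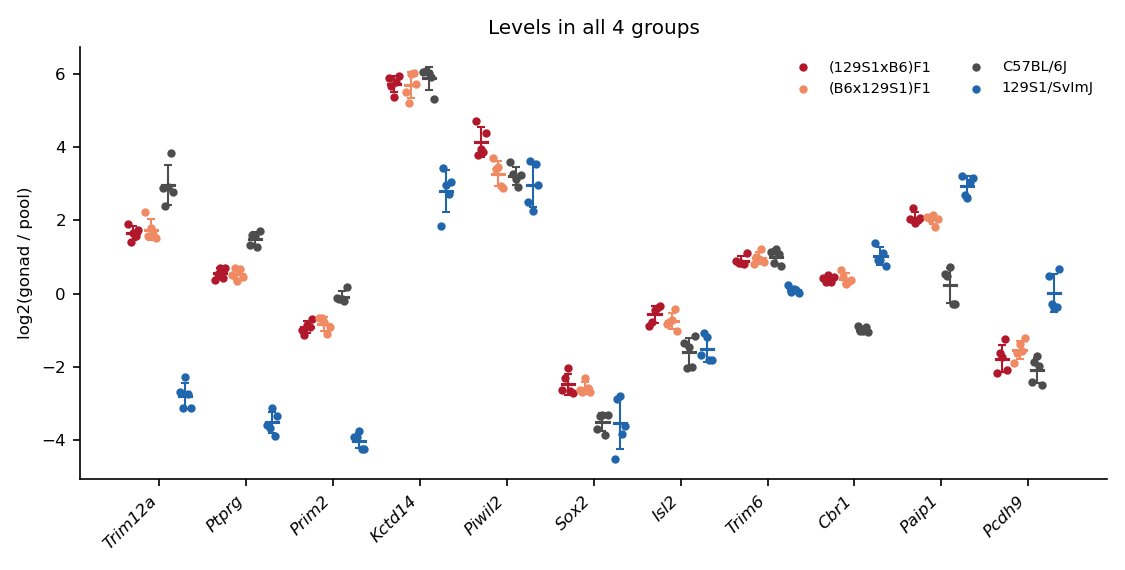
Log2 ratio of gonad over pool (vertical axis) on each array in (129S1xB6)F1, (B6x129S1)F1, C57BL/6J and 129S1/SvImJ, from left to right, for 11 called genes. Points are arrays, short lines are means and bars are the SD over 5 arrays. Both hybrids lie between the strains for Ptprg, Prim2, Cbr1 and Paip1, close to C57BL/6J for Kctd14, Trim6 and Pcdh9, and above both strains for Sox2 and Isl2.

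The lists of the testis and ovary pathways had 1 called gene each. On the male pathway list 26 of 27 genes were tested, 1 was called higher and none lower, with a list median of 0.23. Over all genes tested 0.889% were called. An unadjusted p under 0.05 (limma) was seen in 5 of the 26, against 8.69% of all genes tested. Inhbb, the inhibin beta B subunit made by Sertoli cells, had 5.75 to 6.37 in (129S1xB6)F1 with a median of 5.88, against 4.40 to 5.66 in 129S1/SvImJ with a median of 5.12. The groups did not overlap (0.86 ± 0.20; limma, adjusted p = 0.043), although its second probe gave 0.26 ± 0.24. The call was lost in 18 of 23 alternatives, among them the letter as a random block (adjusted p = 0.13 with the estimated correlation). Sox9 had 1.32, 1.08, 0.26, 0.11 and 0.11 in (129S1xB6)F1, against -0.87, 0.48, 0.32, 0.47 and -1.69 in 129S1/SvImJ. The groups overlapped, with A3 and G3 low, and the difference of 0.83 ± 0.38 did not pass (adjusted p = 0.52). Dmrt1, a transcription factor of Sertoli and germ cells, had 2.94 to 3.15 in (129S1xB6)F1 and 1.75 to 3.02 in 129S1/SvImJ (0.77 ± 0.24, adjusted p = 0.20). Nr0b1, Hsd17b3 and Cst9 gave 0.63 ± 0.28, 0.96 ± 0.43 and 0.91 ± 0.49, with adjusted p from 0.50 to 0.62. Amh, the hormone that removes the Müllerian ducts, differed by -0.02 ± 0.29 (adjusted p = 0.99). The mean of the list was 1.39 to 2.24 in (129S1xB6)F1 and 0.84 to 2.00 in 129S1/SvImJ, so that arrays within a group differed more than the groups did. Within slides 2, 3 and 4, which each held 1 array of both groups, the list median was -0.45, 0.00 and 1.22.

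On the female pathway list 18 of 20 genes were tested, with 1 called higher, none lower and a median of 0.17, where 0.889% of all genes were called. An unadjusted p under 0.05 (limma) was seen in 5 of the 18, against 8.69% of all genes tested. The called gene was Gng13, described above, whose level in the gonad is known to be higher in XX than in XY embryos. Its call was lost in 2 of 23 alternatives. These were no background subtraction (0.51, limma, adjusted p = 0.20) and leaving out slides 1 and 5 (adjusted p = 0.096). Its mean of 1.32 ± 0.27 in (129S1xB6)F1 lay between the 2.99 ± 0.49 of C57BL/6J and the -0.38 ± 0.51 of 129S1/SvImJ. Lef1 and Axin2, which respond to WNT signalling, differed by 0.54 ± 0.17 and 0.66 ± 0.26 (adjusted p = 0.22 and 0.43), Cdkn1b by 0.32 ± 0.12, Runx1 by 0.28 ± 0.13 and the WNT receptor Fzd1 by -0.31 ± 0.19, none of them called. Of 16 tested WNT targets none was called by limma, 5 had an unadjusted p under 0.05, against 8.69% of all genes tested (2061 of 23723), and the median was 0.26. Sp5 and Rnf43, both direct targets of the pathway, gave 0.69 ± 0.24 and 0.71 ± 0.25 (adjusted p = 0.30 and 0.31). Among the 22 tested genes of the bipotential gonad none was called and 1 had an unadjusted p under 0.05. That was Emx2, a homeobox gene needed for the early gonad, at 1.55 to 2.68 in (129S1xB6)F1 and 1.11 to 2.28 in 129S1/SvImJ (0.66 ± 0.24, adjusted p = 0.33).

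Germ cell genes were mostly higher in the hybrid, with few calls. Of 28 tested, 3 were called higher and none lower, against 0.889% of all genes called, and 25 lay above 0, against 12396 of all 23723. The median was 0.33, where the median of all genes was 0.01. With the letter of the sample name as a random block Rec8 alone of the 3 was called (adjusted p = 0.021, against 0.12 for Piwil2 and 0.15 for Sox2 with the estimated correlation), and over 23 alternatives the call was lost in 1 for Rec8, 12 for Piwil2 and 17 for Sox2. Rec8, the meiotic cohesin subunit, had 0.58, 0.49, 0.91, 1.26 and 0.23 in (129S1xB6)F1, against -0.69, -0.76, -0.81, -0.41 and -0.26 in 129S1/SvImJ. Its groups did not overlap (1.28 ± 0.22; limma, adjusted p = 0.0042), its second probe gave 0.42 ± 0.16, and its mean in C57BL/6J was 2.15 ± 0.50. Piwil2 had 3.79 to 4.73 in (129S1xB6)F1 and 2.25 to 3.63 in 129S1/SvImJ, and Sox2 was the other called member. Ddx4, Alpl, Nanog, Pou5f1 and Dazl are named after their values had been seen. Ddx4, the RNA helicase that marks germ cells, had 3.63 to 4.89 in (129S1xB6)F1 and 2.35 to 3.77 in 129S1/SvImJ (1.22 ± 0.34, adjusted p = 0.13). Tex19.1, Alpl and Nanog gave 0.93 ± 0.23, 0.81 ± 0.21 and 0.78 ± 0.26 (adjusted p = 0.074, 0.084 and 0.26), whereas Pou5f1 and Dazl gave 0.06 and -0.08. The mean of the list was 2.12, 1.97, 2.08, 2.25 and 2.33 on the F1 arrays, against 1.74, 1.78, 1.77, 1.89 and 1.40 on the 129S1/SvImJ arrays. All F1 arrays lay above all 129S1/SvImJ arrays, as they did for the means of the cell cycle, hypoxia and TRIM lists, and the list median within slides 2, 3 and 4 was 0.24, 0.14 and 0.71. The germ cell list averaged 2.08 ± 0.15 in (B6x129S1)F1 and 1.64 ± 0.20 in C57BL/6J, with a median difference of 0.43 between them. In whole gonads, fewer cells of a type and less RNA per cell cannot be told apart.

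**Figure D5:**
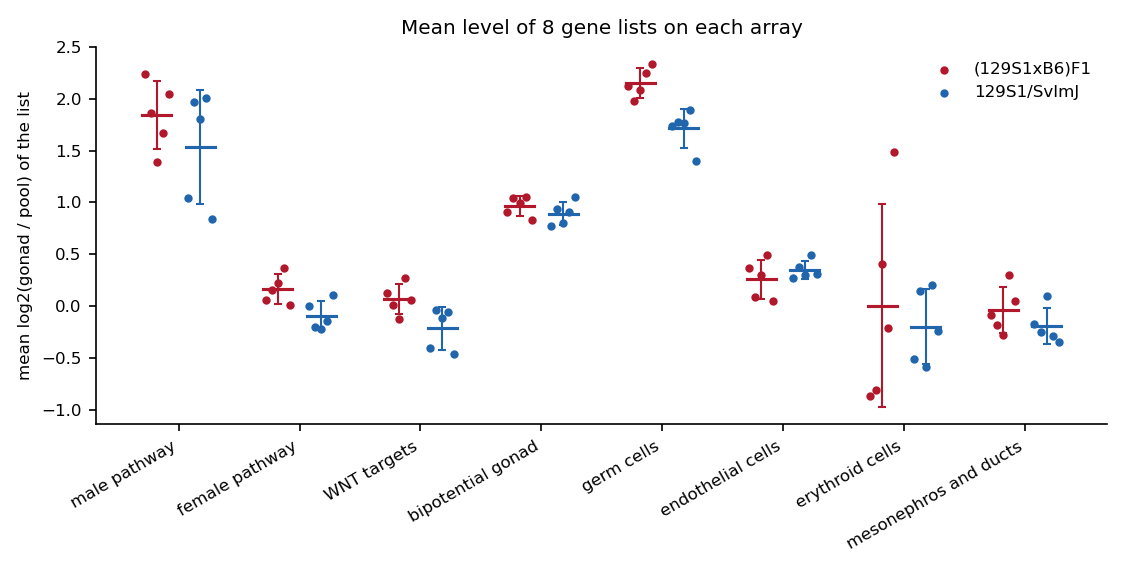
Mean log2 ratio of gonad over pool of the tested members of 8 gene lists (vertical axis) on each array, with (129S1xB6)F1 in red to the left of 129S1/SvImJ in blue. Points are arrays, short lines are group means and bars are the SD over 5 arrays. The germ cell means of 1.97 to 2.33 in the hybrid lie above the 1.40 to 1.89 of the strain, while the male pathway and erythroid means overlap widely.

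Lists of other cell types had no called member. Of 15 endothelial genes 12 were below 0 and 1 had an unadjusted p under 0.05, which was the sialomucin Emcn (-0.52 ± 0.14, adjusted p = 0.13). Erythroid, macrophage, mesonephric and interstitial genes had 0 called by limma and 0 with an unadjusted p under 0.05, of 13, 14, 14 and 16 tested. Among the mesonephric genes Cdh16 had 4.35 on M3 and 3.43 on M6, both on slide 5, against -0.69 to 0.22 on L1, L2 and L4. It had -0.41 to 1.98 in 129S1/SvImJ (1.08 ± 0.82, limma, adjusted p = 0.77). Whether duct tissue was present on M3 and M6 was not tested. The erythroid mean varied most between F1 arrays, with 1.49 on M6 and -0.87 on L1, against -0.59 to 0.20 in 129S1/SvImJ. Of 11 steroidogenic genes none was called and 2 had an unadjusted p under 0.05, which were Star, the cholesterol carrier of steroid synthesis (-0.86 ± 0.26, adjusted p = 0.20), and Hsd3b1 (-0.68 ± 0.20, adjusted p = 0.15). None of 35 imprinted genes was called, and Phlda2 (0.77 ± 0.30), Inpp5f (-0.53 ± 0.17) and Meg3 (-0.40 ± 0.17) were the 3 with an unadjusted p under 0.05, a number near the 8.69% of all genes.

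Among the lists of cell functions, the redox list had 3 calls, the TRIM cluster 2, the cell cycle, hypoxia and oxidative phosphorylation lists 1 each, and the others none. The call among the 28 tested oxidative phosphorylation genes was Nnt, which is also 1 of the 3 redox calls. Over all genes tested 0.889% were called. Among 22 cell cycle genes Prim2 was called, and 11 lay above and 11 below 0. Of 15 hypoxia and glycolysis genes 1 was called, Hk2, a hexokinase, at 0.76 to 1.22 in (129S1xB6)F1 and 0.05 to 0.58 in 129S1/SvImJ (0.63 ± 0.15; limma, adjusted p = 0.048). The Hk2 call was lost in 19 of 23 alternatives, among them centring of the arrays on the median (limma, adjusted p = 0.069). The glucose transporter gene Slc2a1 gave 0.53 ± 0.15 (adjusted p = 0.15). The FGF targets and the immediate early genes had no call among 10 and 16 tested, with 1 unadjusted p under 0.05 in each. Of 21 redox and carbonyl enzymes 3 were called, all lower, namely Glo1, the carbonyl reductase Cbr1 and Nnt. Cbr1 had 0.31 to 0.51 in (129S1xB6)F1 and 0.75 to 1.39 in 129S1/SvImJ (-0.61 ± 0.10; limma, adjusted p = 0.0033), and -0.99 ± 0.07 in C57BL/6J. In the TRIM antiviral cluster Trim12a and Trim6 were called of 8 tested, and 4 lay above and 4 below 0. Of 34 interferon-induced genes none was called, and 4 had an unadjusted p under 0.05, with Oasl2 and Bst2 at 1.34 ± 0.54 and 1.04 ± 0.39 (adjusted p = 0.44 and 0.36). Over all lists 12 of 378 different genes were called, or 3.17%, against 0.889% of all genes tested. Several lists were drawn up with earlier results of these arrays known, so this share is no independent support.

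Of 4 genes used to check the labels, Nnt was called. Nnt, the mitochondrial nicotinamide nucleotide transhydrogenase, in which C57BL/6J is known to carry a deletion, had -0.29, 0.12, -0.10, 0.13 and -0.06 in (129S1xB6)F1, against 0.41, 0.33, 0.50, 0.42 and 0.95 in 129S1/SvImJ. The groups did not overlap (-0.56 ± 0.13; limma, adjusted p = 0.040), and C57BL/6J averaged -0.20 ± 0.20. The other 3 probes of Nnt gave -0.39, -0.27 and 0.03, and whether any of the probes lies in the deleted stretch was not determined. Ren2, a renin gene present in 129 strains and absent from C57BL/6J, had a mean of 2.09 ± 0.50 in (129S1xB6)F1 and 2.80 ± 0.73 in 129S1/SvImJ (adjusted p = 0.55), and 1.63 in C57BL/6J. Signal from Ren2 and from its near-identical copy Ren1 cannot be told apart here. Disc1, in which 129 strains carry a known deletion, differed by -0.22 (adjusted p = 0.51).

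On the sex chromosomes 2 of 628 X-linked genes were called (0.318%), against 147 of 17406 autosomal genes (0.84%). H2ap had 4.14, 3.98, 4.63, 3.96 and 4.60 in (129S1xB6)F1, against 2.49, 2.99, 1.81, 4.32 and 2.25 in 129S1/SvImJ. The groups overlapped through D4 (1.49 ± 0.33; limma, adjusted p = 0.035). Atp2b3, a calcium pump of the plasma membrane, had 2.09 to 3.02 in (129S1xB6)F1 and 1.20 to 1.75 in 129S1/SvImJ (1.01 ± 0.23, adjusted p = 0.037), and its mean of 2.49 ± 0.39 in the hybrid was near the 2.47 ± 0.20 of C57BL/6J. None of the 15 tested Y-linked genes was called. Uba1y, whose relative Uba1 encodes the ubiquitin-activating enzyme, had the largest difference among the Y-linked list (0.94 ± 0.35, adjusted p = 0.35).

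The layout of the slides touches these results. The 2 (129S1xB6)F1 arrays on slide 5 had no 129S1/SvImJ array beside them, and 2 of the 129S1/SvImJ arrays lay on slide 1 with no F1 array. The other pair was laid out in the same way, with C4 and E1 of (B6x129S1)F1 on slide 5 and H1 and H3 of C57BL/6J on slide 1. Slide 5 thus held hybrids only and slide 1 strains only. For these arrays an effect of the slide cannot be told apart from a difference between hybrids and strains. On slides 2, 3 and 4, where both (129S1xB6)F1 and 129S1/SvImJ were present, 208 of the 211 called genes kept their direction on all 3 slides. The medians were 0.98, 0.80 and 0.95 for the higher genes and -0.54, -0.61 and -0.45 for the lower ones. The arrays on these slides had themselves made the calls. For the 187 called genes whose arrays did not overlap, the direction on each slide was fixed. The count is therefore no independent check on the layout. Ptprg differed by 4.38, 3.68 and 3.73 on these slides, Trim12a by 4.79, 3.70 and 5.05, Kctd14 by 1.96, 2.71 and 2.84, and Pcdh9 by -1.44, -1.24 and -2.85. Inhbb differed by 0.10, 0.57 and 0.72. With slide as a block 130 genes were called, and 17 of the 36 named calls were lost, including Inhbb, Nnt, Hk2, Sox2, Piwil2, Lin28a, Isl2, H2ap, Atp2b3, Glo1, Cbr1 and Paip1. With the letter of the sample name as a random block 13 of the 36 were lost, including Inhbb, Nnt, Hk2, Sox2, Piwil2, Lin28a, H2ap, Atp2b3, C7 and Paip1. Without the arrays of slides 1 and 5, 51 genes were called (50 higher and 1 lower), 48 of them among the 211. Leaving out single arrays gave 132 to 209 calls, with the count lowest without M3 (132), M6 (134) and A3 (139). Without background subtraction the difference was 1.09 for Trim12a, 1.93 for Ptprg, 1.34 for Prim2, 0.62 for Gcnt1, 0.65 for Usp53, 0.29 for Slc7a2, 0.17 for Kcnc1, 0.07 for Piwil2 and -0.04 for C7, and the last 4 were then not called. In that fit 11 of the 36 named calls were lost, Gng13 (0.51) among them.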

How the data were processed

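Gonad RNA (200 to 450 ng) was amplified and hybridised to 2-colour Agilent arrays, per the labels' protocols. The deposited scanner files hold spot intensity from Feature Extraction 9.1.3.1, with background subtraction, spatial detrending and LOWESS dye normalization, per the file headers. A deposited table of log2 ratios was used as an alternative; its column medians were 0.000537 to 0.0417, its r with the processed ratios was 0.935 to 0.960, and its further normalization is not given in the sources used here. The genome build of the array design is likewise not given.

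The log2 of processed Cy5 over processed Cy3 was taken for each gene probe, after control spots and outlier-flagged spots were left out and spots of 1 probe averaged. Of 41174 probes, 34820 were tested, those whose Cy5 signal was well above background on 4 or more of the 5 arrays of either group. The limma model (version 3.58.1, R 4.3.3; lmFit and eBayes) held all 20 arrays in 4 groups, with Benjamini-Hochberg adjustment over all probes tested and a threshold of 0.05. A gene was read at its brightest tested probe. Probes were named through RefSeq accessions (22951), current symbols (6659) and synonyms (3109), and 8455 kept the name in the file. RefSeq's GRCm38.p6 table gave names and gene order only. The fit was tested on simulated data. No 2 arrays held the same values. The number of arrays limits the precision, and the median SE of a difference was 0.16. The p-values measure the spread between embryos whose litters are not given.

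The named genes were first the 12 called genes that were highest and the 12 that were lowest by difference, among genes with a symbol and no overlap of arrays. To these were added the 6 members of the male and of the female list and the 4 of every other list with the smallest p. The label checks, called X-linked and Y-linked genes, and called genes above or below both strains completed the set. Not every gene of the set is described in the text, but counts over the named genes cover all of it. The comparison, the members and the 22 lists were chosen with earlier results of these data known. Alternatives covered background correction, centring, quantile normalization, the deposited ratios, the filter on dim probes, the arrays in the fit, slide and sample-name letter as blocks, variance moderation, and leaving out each array. Leaving out slides 1 and 5 was chosen after seeing the data.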

Additional observations from a re-analysis of the deposited data

Results flagged for a closer look

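Among 224 sets of 5 arrays of the named genes, 15 had 1 array far from the other 4 (a gap above 0.71 of the range), where chance gives about 1 in 20. Of the genes described above, Trim6 on M6 (1.10, others 0.82 to 0.89) and Inhbb on M6 (6.37, others 5.75 to 5.93) stood apart in (129S1xB6)F1, and both outlying arrays lay farther from 129S1/SvImJ than the others. Nnt on G3 (0.95, others 0.33 to 0.50), Phlda2 on G3 (-0.15, others 0.38 to 0.59) and Sp5 on A6 (0.54, others 1.11 to 1.28) stood apart in 129S1/SvImJ. Ren2 on L1 was 2.96 (others 1.75 to 2.05) in (129S1xB6)F1. In (129S1xB6)F1, Podxl was 2.35 on L1 (others 3.29 to 3.67), the replication factor Mcm6 0.047 on L1, the interferon regulator Irf1 1.81 on L2, and the Y-linked Zfy2 0.98 on M6. In 129S1/SvImJ, Zfy2 was 0.68 on A3, the mitotic kinase Aurkb -1.28 on A3, Emx1 -0.55 on D4, the cytochrome oxidase subunit Cox5a -0.17 on D4, and the growth factor Gdnf -0.35 on G3. L1, M6 and G3 held 3 of these values each.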

How the results depend on the processing

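All 211 called genes kept their direction under each alternative that gave them a value, except 1 of the 195 with a value when probes had to be well above background on all 10 arrays. The count of called genes (211) was 126 with only the 10 arrays fitted, 130 with slide as a block, 116 with the letter of the sample name as a random block, 51 without slides 1 and 5, and 132 to 209 when single arrays were left out. It was 156 to 225 under the other alternatives. The count of called probes (302) was 189, 197, 169 and 78 under the same 4 alternatives and 198 to 307 when single arrays were left out. The other pair's 400 genes became 160 with the letter as a random block, 76 without slides 1 and 5, and 201 to 456 when single arrays were left out, with 201 without C4, 264 without F2, 219 without H2 and 245 without H3. Fewer arrays were fitted where arrays were left out or only 10 were used; for the block fits the cause was not tested. Of the 36 named calls, 11 held throughout (Trim12a, Ptprg, Prim2, Kctd14, Gcnt1, Fkbp9, Usp53, Rrp7a, Pop4, Pcdh9 and Trim6), and no named call changed sign, though C7 was near 0 without background subtraction (-0.04). Of the 76 named genes not called, 8 were called under at least 1 alternative and 12 changed sign. No paired analysis was possible because the groups share no replicate names; the pairs on shared slides are covered by the fit with slide as a block, which lost 17 of the 36 named calls, and the letter as a random block lost 13. Dim probes limit the folds of Trim12a, Slc7a2 and Kcnc1, whose size depended on the background subtraction.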
